A study of Rattus norvegicus with 23 samples.

Results

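The 10 genes described here are used as marks of eosinophils, basophils and mast cells: Alox15, Fcer1a, Ms4a2, Cpa3, Gata2, Prg2, Epx, Il5ra, Ccr3 and Hdc. They were found by gene name among the probes of an Agilent rat array, and 11 of its 41012 probes carried one of these names, with 2 probes for Ms4a2 and 1 for each other gene. RNA came from peripheral blood mononuclear cells (PBMC), the lymphocytes and monocytes that stay at the interface of a Ficoll density gradient, taken from Wistar rat pups aged 21 days at weaning. All pups were fed freely when killed. The control pups were nursed by dams fed freely, and the CR pups by dams restricted by 20% in calories through lactation. There were 23 arrays, each of 1 pup: 12 of female pups, with 6 in either diet group, and 11 of male pups, with 6 control and 5 CR. The labels name 11 control and 5 CR dams without tying a pup to a litter, so the 11 CR pups had at most 5 mothers and p-values over pups may be too small.

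Eosinophils and basophils are blood granulocytes that act in allergy and in defence against parasites, and mast cells are their tissue counterparts. All carry dense granules of preformed protein, and basophils and mast cells bind IgE through a high-affinity receptor. Most granulocytes are dense enough to pass through Ficoll, while basophils stay largely with the mononuclear cells. The genes fall into granule proteins and their kin (Prg2, Epx, Cpa3), enzymes of mediator synthesis (Hdc, Alox15), receptors (Fcer1a, Ms4a2, Il5ra, Ccr3) and a transcription factor (Gata2), whose family binds DNA at a short GATA motif.

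Promoter sequences of 7 of the 10 genes were in the RefSeq table for the rat assembly GRCr8, each running from 250 bases before the gene's start to 50 bases after it. Those of Alox15, Prg2 and Ms4a2 were not matched. A GATA motif, searched on both strands as AGATAA, with AGATAG as its variant at the end, and in the forms that open with T, namely TGATAA together with TGATAG, was found in 3 of the 7, and in 10155 of all 33469 promoters of that length (30.34%). The promoters of Epx (chr10:73175131-73175430, minus strand) and Hdc (chr3:134318655-134318954, minus strand) are printed because these genes varied together between pups, and those of Cpa3 (chr2:104673188-104673487, minus strand) and Fcer1a (chr13:88224630-88224929, minus strand) because they hold the motif but gave no signal above background. Each is written 5′ to 3′ along the gene, with the motif in capitals, in the reverse complement where it lies on the other strand.
Epx: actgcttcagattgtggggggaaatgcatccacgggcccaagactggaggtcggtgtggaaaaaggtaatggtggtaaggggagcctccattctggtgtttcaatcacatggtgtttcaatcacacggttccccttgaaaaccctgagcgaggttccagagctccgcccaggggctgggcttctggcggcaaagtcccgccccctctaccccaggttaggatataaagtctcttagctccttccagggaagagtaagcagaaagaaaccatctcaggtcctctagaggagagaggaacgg
Hdc: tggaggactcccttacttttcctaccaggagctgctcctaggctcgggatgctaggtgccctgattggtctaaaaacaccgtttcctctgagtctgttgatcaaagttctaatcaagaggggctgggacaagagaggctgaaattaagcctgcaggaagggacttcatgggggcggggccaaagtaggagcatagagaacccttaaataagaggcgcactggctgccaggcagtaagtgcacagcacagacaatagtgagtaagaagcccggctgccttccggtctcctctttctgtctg
Cpa3: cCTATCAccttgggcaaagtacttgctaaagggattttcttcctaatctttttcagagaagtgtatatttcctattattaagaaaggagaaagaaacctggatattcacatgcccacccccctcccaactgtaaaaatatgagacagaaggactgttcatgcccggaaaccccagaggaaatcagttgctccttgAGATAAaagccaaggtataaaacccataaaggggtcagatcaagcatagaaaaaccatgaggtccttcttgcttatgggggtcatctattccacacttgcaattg
Fcer1a: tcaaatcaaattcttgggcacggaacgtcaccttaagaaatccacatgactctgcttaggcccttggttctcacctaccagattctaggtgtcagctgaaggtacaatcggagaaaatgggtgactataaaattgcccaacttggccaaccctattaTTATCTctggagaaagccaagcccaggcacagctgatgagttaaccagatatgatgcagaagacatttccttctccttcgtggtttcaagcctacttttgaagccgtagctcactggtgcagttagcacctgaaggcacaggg
The Cpa3 promoter holds the motif 249 and 55 bases before the start, and the Fcer1a promoter holds it 93 bases before the start. The letters searched for are not in the Epx and Hdc windows. The promoter of Ccr3 holds 2 matches, and those of Gata2 and Il5ra hold none.

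Each array compared a pup's RNA, labelled with Cy5, with an equimolar pool of all samples, labelled with Cy3, with no dye swap. Levels below are log2 ratios of pup to pool, and spot brightness is given only to say whether a probe was measured. The 23 arrays had 20630 to 24094 probes well above background, a median Cy5 intensity of 55.3 to 65.2 and a median local background of 27 to 30. Log ratios were narrowly spread on 4 arrays, CR male 4, control female 2, CR female 2 and CR female 5 (median absolute deviation 0.049 to 0.082, against 0.149 to 0.238 on the others). Their part in the results below was not tested beyond refitting without them. The arrays lay on 6 slides, of which 4 held all groups. The number of arrays limits the precision.

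Only 4 of the 10 genes gave a signal that could be followed. Alox15, Prg2 and Hdc were well above background on 23 of 23 arrays. Epx was above background on 10 of 23, made up of 3 of 6 arrays in each group but CR males, where it was 1 of 5. The other 6 genes stayed near the local background. Fcer1a (A_44_P461402), the alpha chain of the high-affinity IgE receptor, was above background on 0 of 23 arrays, with Cy5 intensities of 37.0 to 53.2. Ms4a2, the beta chain of the same receptor, was above background on 0 arrays with the probe A_43_P15496 and on 1 with A_44_P393495. Cpa3 (A_43_P15942), a carboxypeptidase of mast cell granules, was above background on 0 arrays. Gata2 (A_44_P403866), a transcription factor of basophils, mast cells and blood progenitors, was above on 1 control female array. Il5ra (A_43_P12883), the receptor chain for the eosinophil growth factor IL-5, was above on 1 control male array, and Ccr3 (A_44_P100397), the eotaxin receptor, on 1 CR male array, where it reached 64.5. No level is given for these 6 genes. The defining surface receptors of all 3 cell types were thus not measurable at this brightness, which does not show that they were absent.

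**Figure D1:**
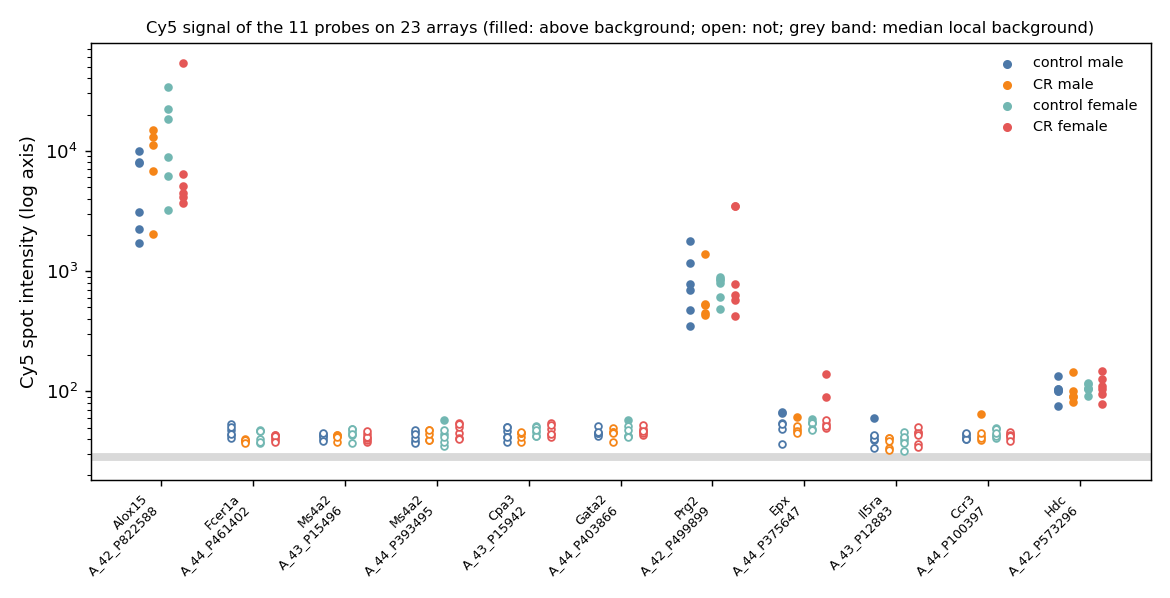
Cy5 spot intensity (log axis) of the 11 probes on 23 arrays, coloured by group, with filled points well above background and open points not. Alox15, Prg2 and Hdc are filled on all arrays and Epx on 10, while the other 7 probes lie between 31.9 and 64.5, close to the grey band of median local background at 27 to 30. Intensities of different probes are not comparable as levels.

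Alox15 encodes arachidonate 15-lipoxygenase, an enzyme of lipid mediator synthesis that is known from eosinophils and also from maturing red cells (reticulocytes), where it helps to clear mitochondria. It was measured by A_42_P822588 (NM_031010), at chr10:57186202-57186261 on the minus strand of rn4. Its log2 ratio ran from −2.66 to −0.21 in control males, with a median of −1.13. The 5 CR males gave 0.94, 0.17, 0.36, −0.70 and −2.34. In control females the lowest, median and highest values were −1.88, 0.217 and 1.504, and in CR females −1.46, −1.29 and 2.60. The 4 groups overlapped. In CR females 5 of 6 pups lay between −1.46 and −0.74, and CR female 5 alone stood high, while the other groups were spread over more than 2 log2 units. The widest gap between 2 pups, control male 5 and CR female 5, was 5.27 log2 units or 38.6-fold. The SD within groups was 1.33, larger than that of 99.9% of the 20603 features tested. Their median was 0.137, and they were not matched for brightness. Ordered by group mean, control females (0.03 ± 1.28, SD, n = 6) came first, then CR males (−0.32 ± 1.28, n = 5), CR females (−0.60 ± 1.60, n = 6) and control males (−1.28 ± 1.12, n = 6). Neighbours in this order differed by less than their SDs.

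Prg2 encodes major basic protein, the most familiar protein of the eosinophil granule and also found in basophils. Its probe A_42_P499899 (NM_031619) lies at chr3:68213141-68213200 on the plus strand of rn4. The lowest, median and highest log2 ratios were −0.47, 0.62 and 1.42 in control males, −0.23, 0.36 and 0.43 in control females, and −0.40, 0.40 and 1.99 in CR females. The CR males gave 0.03, −0.58, 1.43, −0.12 and −0.17. A few pups stood high in 3 of the groups, led by CR female 6 at 1.99 and CR female 4 at 1.92, and control females lay close together. Prg2 spanned 2.57 log2 units or 5.93-fold, with an SD within groups of 0.74, larger than that of 99.4% of features. Group means were 0.76 ± 0.97 in CR females, 0.47 ± 0.77 in control males, 0.24 ± 0.26 in control females and 0.12 ± 0.77 in CR males (SD), and neighbours did not differ beyond their spread.

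Epx encodes eosinophil peroxidase, a granule enzyme. Its probe A_44_P375647 lies at chr10:76161546-76161605 on the minus strand of rn4, and the pool was above background there on 0 of 23 arrays, so its ratios rest on a dim denominator. Log2 ratios lay between −0.14 and 0.17 in control males, −0.12 and 0.17 in CR males, and 0 and 0.21 in control females. In CR females they lay between −0.02 and 0.65. The top values, 0.65 and 0.43, belonged to CR females 4 and 6, the same pups that led Prg2. The probe met the filter through the 3 groups where 3 of 6 arrays were above background.

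Hdc encodes histidine decarboxylase, the enzyme that makes histamine. Its probe A_42_P573296 (NM_017016) lies at chr3:114119509-114119568 on the minus strand of rn4. The lowest, median and highest log2 ratios were −0.04, 0.19 and 0.50 in control males, 0.00, 0.23 and 0.31 in control females, and 0.02, 0.16 and 0.39 in CR females. The CR males gave 0.06, 0.11, 0.62, 0.06 and 0.21. The 4 group means lay between 0.17 and 0.22, with SDs of 0.10 to 0.24. Epx and Hdc spanned 1.73-fold and 1.58-fold over all pups, with SDs within groups above those of 66.1% and 67.6% of features. Both intensities were low, with medians of 53.4 for Epx and 104 for Hdc, and the offset added in the background correction compresses the ratios of dim probes. Alox15 and Prg2 were brighter, with medians of 6843 and 695. The ranks by SD of the 4 genes were thus not taken against features of like brightness.

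**Figure D2:**
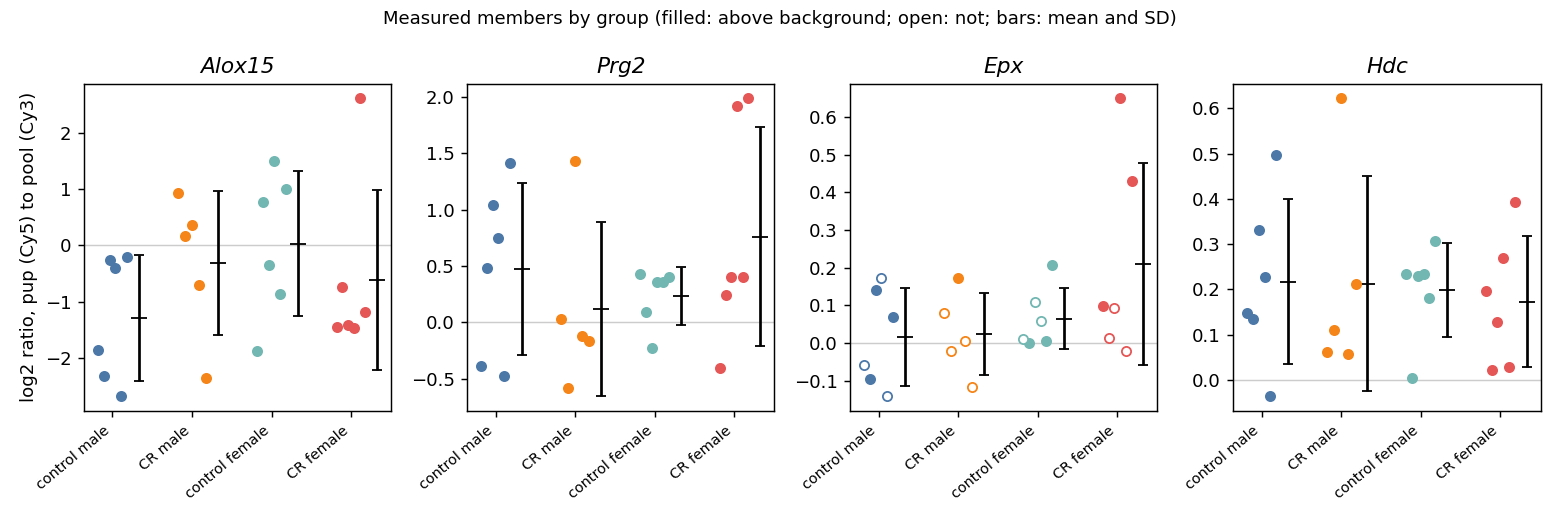
Log2 ratio of pup to pool for the 4 measured genes, 1 point per pup by group, with the mean and SD as a bar and open points where Cy5 was not well above background. The vertical scale differs between panels: Alox15 spans 5.27 log2 units and Hdc 0.66, and the groups overlap in every panel.

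The first comparison asked whether restriction of the dam during lactation went with other levels in her pups, in each sex. For none of the 4 measured genes did CR and control pups differ by more than the spread between pups. In males the log2 difference, CR minus control, was 0.97 ± 0.74 (SE) for Alox15, a 1.96-fold higher mean with a 95% interval of 0.67-fold to 5.70-fold, and 4 of 5 CR males lay above the control mean. Its adjusted p was 0.813, in limma's moderated test with Benjamini-Hochberg adjustment over 20603 features. Prg2 differed by −0.35 ± 0.41 (adjusted p = 0.886), with 1 of 5 CR males above the control mean. Epx differed by 0.0085 ± 0.098 and Hdc by −0.0041 ± 0.10 (adjusted p = 0.992 and 0.997). Across all features 0% passed an adjusted p under 0.05 in males (0 of 20603), and 7.14% had an unadjusted p under 0.05, which 0 of the 4 genes had.

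In females Alox15 was lower in CR pups by a log2 difference of −0.64 ± 0.71, with 1 of 6 CR females above the control mean. Prg2 differed by 0.52 ± 0.39, a 1.44-fold higher mean with a 95% interval of 0.82-fold to 2.53-fold, with 5 of 6 above. Epx differed by 0.15 ± 0.09, with 4 of 6 above, and Hdc by −0.03 ± 0.10, with 2 of 6 above. Adjusted p was 0.995 for the first 3 genes and 0.997 for Hdc (limma). In females 0% of features passed the adjusted threshold and 4.64% the unadjusted one, again with 0 of the 4 genes. Leaving out 1 pup at a time moved the female difference of Alox15 between −1.28 (without CR female 5) and −0.34. In males it moved between 0.65 and 1.47 (without CR male 5). For Prg2 in females the value was 0.29 without CR female 4 and 0.28 without CR female 6. For Prg2 in males it was −0.68 without CR male 3, −0.54 without control male 5, −0.18 without CR male 2 and −0.16 without control male 6. With median centring it was −0.74, where the median of all features was −0.19. For Epx in females it was 0.058 without CR female 4, and the other scalings gave 0.23 (Cy5 alone), 0.27 (median centring) and 0.51 (scanner ratio). None of these values passed.

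Averaged over the sexes, the CR minus control difference was 0.16 ± 0.51 for Alox15, 0.08 ± 0.29 for Prg2, 0.08 ± 0.07 for Epx and −0.01 ± 0.07 for Hdc (adjusted p 0.871 to 0.984, limma). The sign of this average turned for Alox15 and Prg2 with median centring, for Epx with the scanner software's ratio and for Hdc with Cy5 alone. Of all features 0% passed the adjusted threshold there and 7.31% the unadjusted one. The difference between the male and female diet effects was 1.61 ± 1.03 for Alox15 and −0.88 ± 0.57 for Prg2 (adjusted p = 0.939 for both), and the background was 0% and 4.67%. Males minus females, averaged over diets, gave −0.52 ± 0.51 for Alox15, −0.20 ± 0.29 for Prg2, −0.12 ± 0.07 for Epx and 0.03 ± 0.07 for Hdc (adjusted p 0.728 to 0.929). In that comparison 12 features passed the adjusted threshold (0.0582%) and 7.41% the unadjusted one, and 0 of the 4 genes passed either. The value of Epx was −1.03 with the scanner ratio, and that of Alox15 −0.26 without CR male 5, −0.20 without CR female 5 and −0.01 without the 4 narrow arrays. Leaving out 1 pup moved that of Prg2 between −0.37 (without CR male 3) and −0.080 (without CR female 6).

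The same comparison made within slides gave no steadier picture. Alox15 was higher in the CR male on 3 of 4 slides and in the CR female on 2 of 6. Prg2 was higher in the CR male on 1 of 4 slides and in the CR female on 5 of 6. For Epx these counts were 1 of 4 and 4 of 6, and for Hdc 1 of 4 and 3 of 6.

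**Figure D3:**
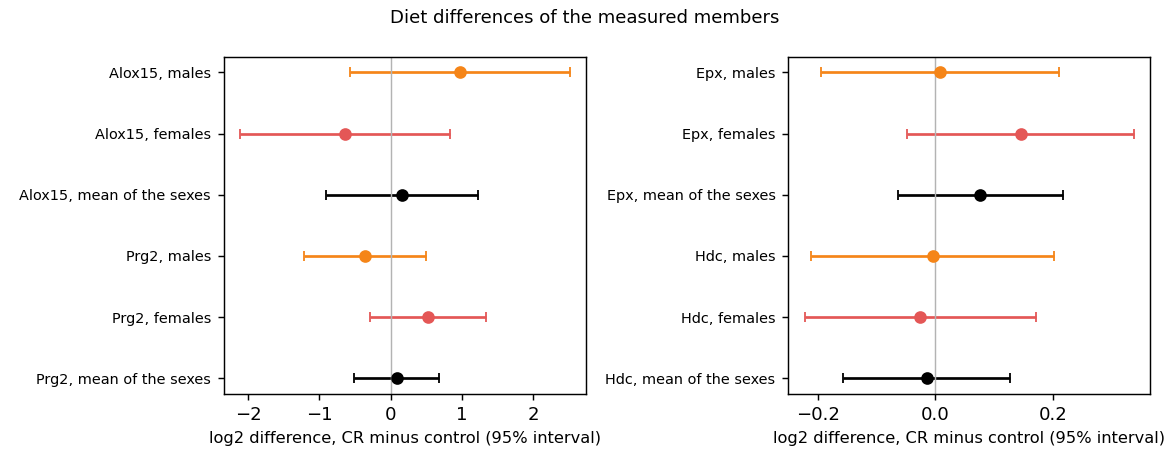
Log2 difference, CR minus control, of the 4 measured genes in males, in females and as the mean of the sexes, with 95% intervals from the limma fit. Every interval includes 0, and those of Alox15 and Prg2 on the left are several times wider than those of Epx and Hdc on the right.

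The variation between pups of the same group was then compared between genes. Values were centred on the group means, and Pearson's r was tested by 100000 permutations of pups within groups, two-sided, with adjustment over 6 pairs of genes. Prg2 and Epx, both eosinophil granule genes, rose and fell together over the 23 pups (r = 0.761, Spearman's rho = 0.770, permutation p = 0.0012, adjusted 0.00244). Prg2 and Hdc did so as closely (r = 0.768, rho = 0.698, permutation p = 0.00038, adjusted 0.00228), and Epx and Hdc less tightly (r = 0.615, rho = 0.649, permutation p = 0.00122, adjusted 0.00244), a difference between pairs that was not tested. Without the 2 pups farthest from the median of the first gene, r was 0.723, 0.647 and 0.640. With slide means subtracted as well, r was 0.738, 0.781 and 0.555, and without the 4 narrow arrays 0.771, 0.784 and 0.548. The lowest r in any alternative run was 0.564, 0.591 and 0.439, and the largest adjusted permutation p was 0.038. All arrays share the same pool, and Prg2, Epx and Hdc were read from the same RNA of each pup. Epx was above background on only 10 of 23 arrays, and its pool on 0, so most of its values lay near background.

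Alox15 did not pass with Prg2, Epx or Hdc over the 23 pups. Its r was 0.170 with Prg2, 0.078 with Epx and 0.073 with Hdc (adjusted permutation p 0.763 to 0.801). Its rho was 0.220, 0.319 and 0.129 (adjusted permutation p 0.211 to 0.58). Without the 2 pups farthest from the median of Alox15, r was 0.291, 0.370 and 0.230. Without CR female 5, the pup with the highest Alox15, r with Epx was 0.390 (adjusted permutation p = 0.022), and without the 4 narrow arrays, of which it is 1, r was 0.512 (adjusted permutation p = 0.00726). In that pup Alox15 was at 2.60 while Epx was at −0.02 and Hdc at 0.03. Other runs moved r with Epx the other way. It was −0.0063 without CR male 5 (adjusted permutation p = 0.987) and −0.0080 with the scanner software's ratio (adjusted permutation p = 0.977).

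The markers of 7 other blood cell types were set beside the 4 genes, as the mean log2 ratio of each list on each array, giving 28 relations. Alox15 moved with the red cell markers: Hbb (a haemoglobin chain), Alas2 (haem synthesis), Slc4a1 and Epb42 (red cell membrane) and Ahsp (a haemoglobin chaperone). Over 23 pups r was 0.989 and rho 0.983 (permutation p = 1e-05, the smallest these permutations can give, adjusted 0.00028). Without the 2 farthest pups r was 0.984, with slide means subtracted 0.992, and without the 4 narrow arrays 0.982. Each of the 5 markers had r of at least 0.958 with Alox15, while the median feature had −0.04. Hbb was measured on 20 arrays after outlier spots were left out. Under the other scalings r was 0.987 (scanner ratio), 0.986 (median centring) and 0.953 (Cy5 alone).

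The red cell markers also shifted in the same directions as Alox15 between the diets. Each had r of at least 0.958 with Alox15 across pups, so the 5 are not separate observations. In males 5 of 5 were higher in CR pups, with a median difference of 0.91, and in females 0 of 5 were higher, with a median of −0.35, while none passed an adjusted p under 0.05 (limma). These counts were the same under the 3 other scalings. With median centring the male median of the markers was 0.42, where that of all features was −0.19. The list mean ran from −2.41 to −0.18 in control males, −1.78 to 0.54 in CR males, −1.93 to 1.27 in control females and −1.46 to 2.16 in CR females. A fit with the list mean as a covariate was chosen after the data were seen. The Alox15 difference in males was then −0.09 ± 0.12, against 0.97 ± 0.74 without the covariate. In females it was −0.16 ± 0.11, against −0.64 ± 0.71 (adjusted p = 0.911 and 0.963 with the covariate, limma). The covariate had r of 0.989 with Alox15 within groups, so this fit could leave little of the difference or its SE. No conclusion is drawn from it. In these bulk samples a different number of cells of a type and a different amount of RNA per cell cannot be told apart.

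**Figure D4:**
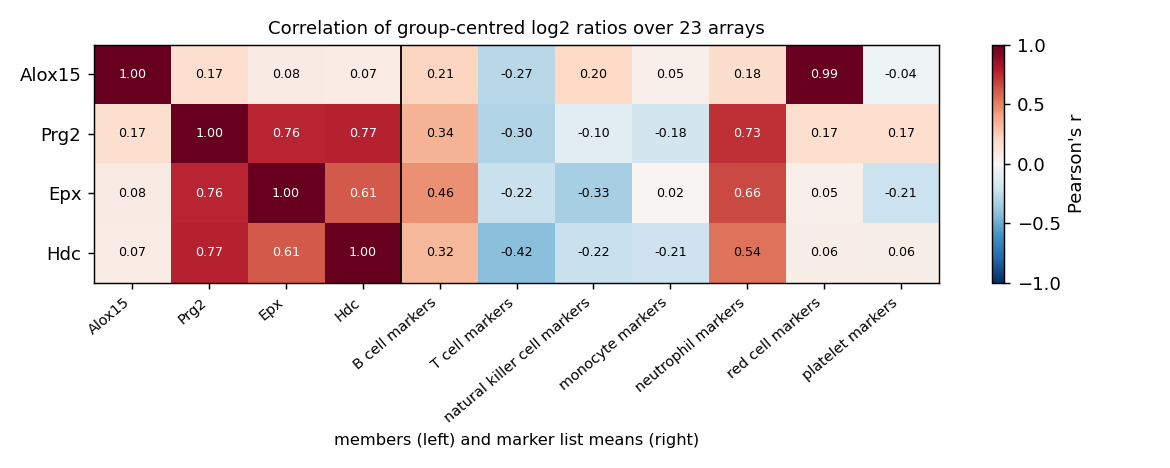
Pearson's r of group-centred log2 ratios over 23 arrays, for the 4 measured genes among themselves (left of the line) and with the mean of each of 7 marker lists (right). Alox15 stands at 0.99 with the red cell markers and at 0.27 or less in size elsewhere, and Prg2, Epx and Hdc are at 0.61 to 0.77 with each other and 0.54 to 0.73 with the neutrophil markers.

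Prg2 moved with the neutrophil markers (r = 0.730, rho = 0.658, adjusted permutation p = 0.00434 for r and 0.0427 for rho). Without the 2 farthest pups r was 0.769, and with slide means subtracted 0.631. For Epx and Hdc r was 0.659 and 0.542, and neither r passed after adjustment (adjusted permutation p = 0.0518 for both). By rho Hdc passed (0.606, adjusted permutation p = 0.0438) and Epx did not (0.571, adjusted permutation p = 0.0836). The scanner software's ratio gave an r of 0.728 for Prg2 but 0.303 for Epx and 0.318 for Hdc. Within this list the highest r with Prg2 were 0.842 for Mpo (myeloperoxidase), 0.787 for Np4 (a defensin), 0.755 for Camp (cathelicidin) and 0.658 for Lcn2 (lipocalin 2). Csf3r, the receptor for the granulocyte growth factor on mature neutrophils, had −0.05. Mmp9, S100a8 and S100a9 had 0.448, 0.405 and 0.317. The list was higher in CR pups at 8 of 8 genes in males (median 0.13) and 6 of 8 in females (median 0.12), with none past the threshold, and at 5 to 8 of 8 under the other scalings. T cell, natural killer cell, monocyte, platelet and B cell markers had r between −0.42 and 0.46 with the 4 genes, and none passed after adjustment. The part of any of these cells in the values of Prg2, Epx and Hdc was not tested.

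**Figure D5:**
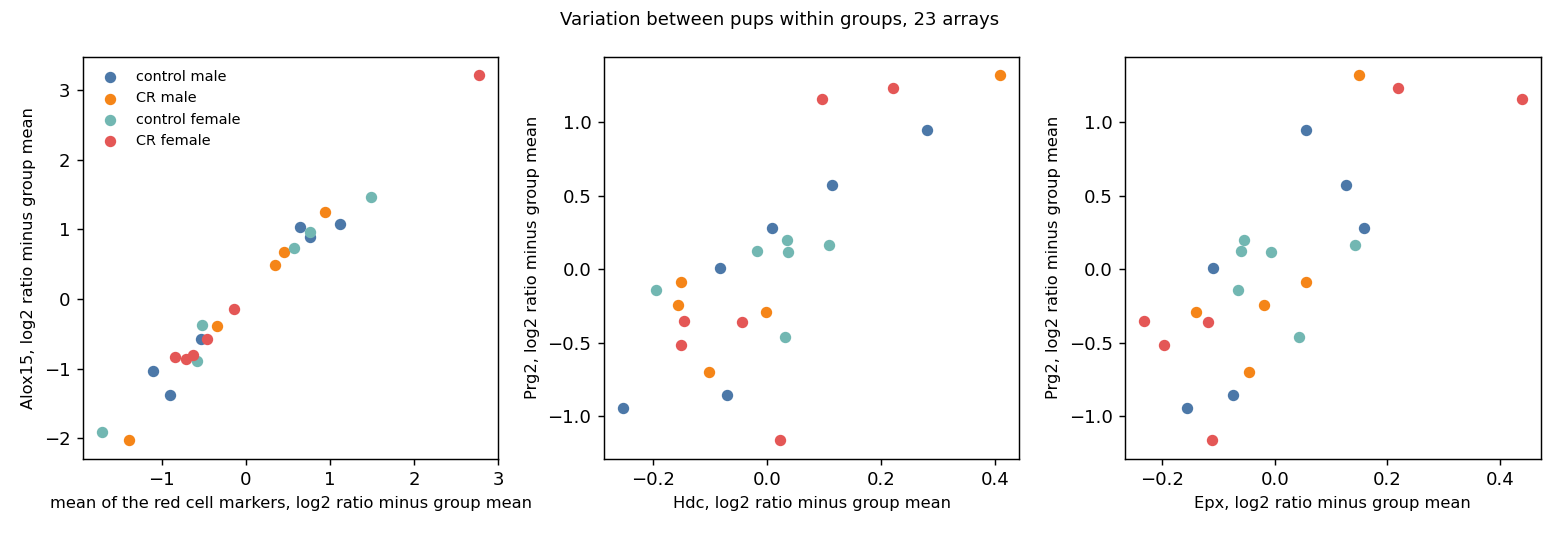
Group-centred log2 ratios of 23 pups, coloured by group: Alox15 against the mean of 5 red cell markers (left), Prg2 against Hdc (centre) and Prg2 against Epx (right). The left panel is close to a straight line (r = 0.989), with CR female 5 at its upper end, and the other panels are looser (r = 0.768 and 0.761).

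Across the 10498 named features with a value on every array, the 3 most like each gene were named by r over the 23 pups, as a description with no test. For Alox15 these were Rhd (0.992), a red cell blood group protein, Rsad2 (0.990), known as an interferon-induced antiviral enzyme, and Car2 (0.986), the carbonic anhydrase abundant in red cells. For Prg2 they were Ctsg (0.866), cathepsin G of granulocyte granules, Mcpt9 (0.862), a serine protease of the mast cell protease family, and Ccna2 (0.857), a cyclin of dividing cells. For Epx they were Ldhc (0.857), a lactate dehydrogenase chain, Prg3 (0.856), a close relative of Prg2 that was above background on 11 of 23 arrays, and Mpo (0.817). For Hdc they were Ccne1 (0.874), Tpx2 (0.866) and Ttk (0.857), which act in the cell cycle and the mitotic spindle. With slide means subtracted these 12 values lay between 0.788 and 0.994. Probes of the mast cell protease family can share near-identical sequence, so which member was measured is uncertain.

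Other genes of the same cells were read from lists. Of 34 listed basophil and mast cell genes 19 were tested, and 12 more were on the array but too dim, among them Kit (the mast cell growth factor receptor), Il4, Ptgdr2, Prss34 and Hpgds. For CR minus control, mean of the sexes, 0 of 19 passed, with 8 higher and 11 lower and a median of −0.0038, against 0.0013 for all features. Under the other scalings 6 to 9 of the 19 were higher. The 4 with the smallest p were Lat2 (−0.20 ± 0.07, an adaptor of receptor signalling), Enpp3 (0.13 ± 0.05, the basophil surface enzyme CD203c), Il3ra (−0.19 ± 0.10, the IL-3 receptor) and Srgn (0.15 ± 0.09, the granule proteoglycan serglycin), with adjusted p of 0.585 to 0.788 (limma). Across pups 8 of the 19 had r over 0.5 with Prg2, against 3.7% of all features, and the median r of the list was 0.30. Most of the 8 belong to the mast cell protease family, whose probes can share near-identical sequence. They may therefore not be separate observations. Among the 8 were Mcpt8 (0.775), a basophil protease, Mcpt8l2 (0.803), Mcpt8l3 (0.828), Mcpt1 (0.814), Cma1 (0.784) and Ms4a3 (0.794), a gene of granulocyte precursors. The same genes had r of −0.07 to 0.21 with Alox15. Gata1, a transcription factor of red cells as well as of basophils and mast cells, had 0.925 with Alox15 and 0.211 with Prg2. Enpp3, also of basophils, had −0.0029 with Prg2, and the mast cell tryptases Tpsb2 and Tpsab1 had −0.40 and −0.19.

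Of 27 other eosinophil genes 16 were tested and 0 passed, with 9 higher and 7 lower and a median of 0.02. With median centring 4 were higher and 12 lower, with a median of −0.059 against −0.099 for all features under that scaling. Il5 (the eosinophil growth factor), Csf2rb (the shared receptor chain for IL-5, IL-3 and GM-CSF), Csf2, Il3 and Ccl24 were too dim. The 4 with the smallest p were Siglec10 (−0.47 ± 0.14) and Siglec5 (−0.16 ± 0.07), sialic acid receptors, Ccl5 (0.21 ± 0.15), a chemokine, and Rnase3 (0.08 ± 0.06), an eosinophil granule ribonuclease, with adjusted p of 0.585 to 0.842 (limma). Across pups 3 of the 16 had r over 0.5 with Prg2, against 3.7% of all features, and the median r of the list was 0.025. The 3 were Prg3, Gfi1 (0.714), a repressor of granulocyte development, and Rnase3 (0.661). Cebpa (−0.45), a granulocyte transcription factor, Ccr1 (−0.33), a chemokine receptor, Ccl11 (−0.31), the chemokine eotaxin, and Stat5a (−0.28), a cytokine signalling factor, lay on the other side. In males minus females 15 of these 16 genes and 17 of the 19 basophil and mast cell genes were lower in males. The medians were −0.09 and −0.07, against −0.0011 for all features, and 0 genes passed. Under the other scalings 13 to 16 and 15 to 17 were lower. Genes that vary together between pups are not separate observations in these counts.

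The signalling chain under the high-affinity IgE receptor was measured in part, although Fcer1a and Ms4a2 were not. Of 24 listed genes 22 were tested, and 0 passed. For the mean of the sexes 5 were higher and 17 lower in CR pups, with a median of −0.13 against 0.0013 for all features, and 9 had an unadjusted p under 0.05, all lower, where 7.31% of all features passed in either direction. Under the other scalings 16 to 21 of the 22 were lower. With median centring the median was −0.35, against −0.099 for all features under that scaling. The smallest p belonged to Plcg2 (−0.43 ± 0.10, adjusted p = 0.495, limma), a phospholipase, and Syk (−0.47 ± 0.14), the kinase that docks on the receptor, followed by Prkcb (−0.25 ± 0.08) and Ptpn6 (−0.28 ± 0.10), with adjusted p of 0.585 each. Most genes of this list also serve the B cell receptor. The 6 B cell markers were lower in CR pups at 6 of 6 in each sex, with median differences of −0.46 in males and −0.35 in females and none past the threshold. The counts were the same under the 3 other scalings, and the part of B cells in the values of the list was not tested.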

How the data were processed

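Spots of the array (Agilent rat design 014879) were read by the authors with Agilent's Feature Extraction, version 10.5.1.1 in the submitters' processing notes. Per the file headers, each deposited scanner file holds the intensity of every spot in both channels before normalization, the software's own dye-normalized log10 ratio, and other columns that are spot flags. A deposited table of log2 values, made by a method that is not given in the sources used here, served as an alternative only.

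Intensities were corrected with normexp (offset 50) in limma 3.58.1 (R 4.3.3) and normalized by loess within arrays, with control spots given no weight and outlier spots (127 to 427 per array) missing. Probes above background in Cy5 on at least 50% of the arrays of a group were kept, and the brightest stood for its gene. A model of the 4 group means was fitted to 20603 features, and a change was an adjusted p under 0.05. Probe positions follow the array's design (rn4), and names come from RefSeq (GRCr8). The fit was tested on simulated data. Named genes are the 3 most like each measured gene and the 4 of each list with the smallest p for the diet mean, by a written rule; genes named for their r with a measured gene, and members of dim lists, were chosen after their values were seen. One red cell marker of the written design was left out of its list and is not reported here; of the other 7, 5 were matched to a probe. The genes and lists were chosen with earlier results of these data known. Alternatives are given in the closing section. Whether replicate numbers pair pups is not known. Same-numbered pups correlated at 0.030 to 0.204 in males and −0.238 to 0.329 in females, with no other pairs set beside them. In females the control and CR pup of each number shared a slide.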

Additional observations from a re-analysis of the deposited data

Results flagged for a closer look

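In 2 of 16 sets of values (4 genes in 4 groups) 1 pup stood apart from the rest of its group by Dixon's criterion at 95%, which chance meets in about 1 of 20 sets. Alox15 in CR female 5 had a log2 ratio of 2.60, against −0.74 in the nearest pup of that group. The gap was 0.824 of the group's range, above the critical value of 0.625. This array is 1 of the 4 with narrowly spread log ratios and had the lowest median correlation with the other arrays (0.066). Hdc in CR male 3 had a log2 ratio of 0.62, against 0.21 in the nearest pup. The gap was 0.727 of the range, above 0.71, and the same pup had the highest Prg2 (1.43) and Epx (0.17) of its group.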

How the results depend on the processing

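In every alternative run, 0 of the measured genes passed in each of the 5 comparisons, and 0 of all 10 with no filter on dim probes. Prg2 with Epx, Prg2 with Hdc and Epx with Hdc stayed past the threshold in all alternatives run on them. Differences that did not pass changed sign as follows; the cause was not tested. With the scanner software's ratio, Epx in males was −0.58 and in the mean of the sexes −0.033, the male minus female diet effect of Hdc −0.059, and r of Alox15 with Epx −0.0080. Median centring, which moves the median of all features by −0.18 in males, −0.10 in the mean and −0.15 in the difference of diet effects, gave 0.0041 for Hdc in females, −0.073 for Alox15 and −0.11 for Prg2 in the mean, and −0.089 for the diet effect difference of Hdc. Cy5 alone gave −0.011 for Epx in males and, for Hdc, 0.094 in females, 0.039 in the mean, −0.11 in the diet effect difference and −0.030 between the sexes. The slide as a block gave −0.0068 for Epx and 0.0076 for Hdc in males and −0.13 for the Alox15 mean. The replicate block gave 0.037 for Hdc in males and 0.0057 in the mean, and changed no call of these genes. Whether the labels' numbers pair the pups is not known. The deposited value table, which lacked Epx, gave for Hdc 0.054 in females, 0.0095 in the mean, −0.088 in the diet effect difference and −0.015 between the sexes. Leaving out the 4 narrow arrays, chosen after seeing the data, gave for Hdc 0.035 in males, 0.0099 in females, 0.022 in the mean and −0.0075 between the sexes, −0.097 for the Alox15 mean, and r of 0.512 for Alox15 with Epx. The red cell covariate gave −0.090 for Alox15 in males and −0.13 in the mean. Leaving out 1 pup at a time gave −0.029 to 0.043 for Epx in males; for Hdc −0.11 to 0.052 in males, −0.069 to 0.0049 in females, −0.066 to 0.013 in the mean, −0.081 to 0.077 in the diet effect difference and −0.022 to 0.055 between the sexes; −0.16 to 0.42 and −0.080 to 0.20 for the means of Alox15 and Prg2; and r of −0.0063 to 0.390 for Alox15 with Epx and −0.027 to 0.261 with Hdc. Epx lies near background, which limits what its small differences can show.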

Other observations

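Rsad2, an antiviral gene that interferon induces, was the feature second most like Alox15, and its other probe behaved alike: r with Alox15 over 23 pups was 0.990 for A_44_P196172 and 0.940 for A_44_P370190. It spanned 5.22 log2 units between pups. Other interferon-induced genes, chosen after this was seen, were divided. Irf7 had r of 0.855 with Alox15 and Ifit1 0.740, spanning 1.91 and 3.55 log2 units. Isg15 (0.069), Mx1 (−0.13), Oas1a (−0.06), Usp18 (−0.09) and Ifit2 (−0.04) did not follow Alox15, nor did Mx2 (−0.26), which was above background on 13 of 23 arrays. These values are a description, with no test.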
